A study of Mus musculus with 6 samples.

Results

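The 9 tight junction genes described here are Cldn1, Cldn2, Cldn3, Cldn5, Cldn12, Cldn14, Tjp1, Tjp3 and Ocln. They were picked by symbol from 34745 genes of the expression table, and all 9 were present. All 9 were among the 14137 genes that passed the filter on low counts.

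Tight junctions are the seals between neighbouring hepatocytes that keep bile in the canaliculus apart from blood plasma. Their strands are built of claudins, membrane proteins that decide which ions and small molecules pass between cells, together with occludin (Ocln). On the inner side the zonula occludens scaffolds, encoded by the Tjp genes, tie these strands to actin. In liver the claudins described best are Cldn1, Cldn2 and Cldn3 of hepatocytes and bile duct cells and Cldn5 of endothelial cells. Claudin-2 forms a channel for cations and water, whereas claudin-1 and claudin-3 tighten the seal.

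Liver RNA came from Sox9f/f mice (replicates 5, 6 and 8) and from Sox9HKO mice (replicates 9, 10 and 12). Sox9f/f is the floxed genotype, titled WT by the submitters. Both genotypes received an MCD diet, which lacks methionine and choline, over 6 weeks, and no group on another diet was analysed here. The labels give neither what drives the deletion in Sox9HKO nor age or sex. They also do not say that each library is a separate mouse, so the p-values measure the spread between these samples, which may be technical in part.

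Library totals lay between 22826962 and 27286864 counts. The hepatocyte markers were abundant in every library, with a summed level of 91720 to 97430 CPM in Sox9f/f and 73190 to 81940 CPM in the libraries labelled Sox9HKO (CPM, the counts scaled to library size with TMM factors). Sox9, the targeted gene, ran against the label read as a loss in whole liver. Its level was 5.80, 5.31 and 5.80 CPM in Sox9f/f and 15.3, 18.1 and 22.7 CPM in the libraries labelled Sox9HKO. Counts summed over a whole gene cannot check a deletion of some exons. Every direction below is therefore one between labels. In bulk RNA, fewer cells of a type and less RNA per cell cannot be told apart.

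The comparison asked which of the 9 genes differed between the labelled genotypes. edgeR's quasi-likelihood test called 0 of the 9 at a Benjamini-Hochberg adjusted p under 0.05, where 0% of all genes tested were called, and again 0 of the 9 at 0.1, where 0.0354% of all genes were called. Occludin and the scaffold gene Tjp1 were the members whose groups did not overlap, both higher in the libraries labelled Sox9HKO. Groups separated upwards in this way for 12.2% of all genes tested, and in either direction for 26.5%. The same 2 of 9 members had an unadjusted p under 0.05, against 9.74% of all genes tested that were higher at that level. With a trend on gene length removed Tjp1 lost this, leaving 1 of 9, where 7.29% of all genes were higher. The median of the 9 then went from 0.15 to -0.014, and that of all genes from 0.0044 to -0.0415. Without Sox9HKO replicate 10, Cldn1 was added, giving 3 of 9 higher (all genes 6.68%). Without Sox9HKO replicate 9, 2 were higher (all genes 8.7%) and 1 lower. DESeq2 called Ocln alone. Of all genes it called 4.46%, with 2.4% higher and 2.05% lower.

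Ocln, the MARVEL-domain partner of the claudins, lies on the minus strand of chromosome 13 from 100496507 to 100552718 (GRCm38, ENSMUSG00000021638). Its counts were 483, 324 and 252 in Sox9f/f replicates 5, 6 and 8. In the libraries labelled Sox9HKO, replicates 9, 10 and 12, they were 882, 705 and 828. Sox9f/f replicate 5 lay closest to the other group and was well above replicates 6 and 8. The mean level was 14.9 ± 6.28 CPM (SD, n = 3) against 29.7 ± 3.49 CPM (SD, n = 3). This was 1.99-fold, or 0.99 ± 0.27 (SE) on the log2 scale. The edgeR adjusted p was 0.151 and the DESeq2 adjusted p 0.0207. Over all alternatives the fold change on the log2 scale stayed between 0.78 and 1.39. Its adjusted p ran from 0.0207 to 0.36 over the same settings.

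Tjp1 encodes ZO-1, the scaffold on which claudin strands are laid down. It lies on the minus strand of chromosome 7 from 65296165 to 65527781 (ENSMUSG00000030516). Sox9f/f replicates 5, 6 and 8 stood at 48.1, 46.7 and 44.5 CPM, a tight group. The libraries labelled Sox9HKO stood at 53.4, 62.0 and 61.4 CPM, with replicate 9 the lowest. The means were 46.4 ± 1.81 and 58.9 ± 4.82 CPM (SD, n = 3 each). On the log2 scale the difference was 0.34 ± 0.11 (SE) with an edgeR adjusted p of 0.168, and 0.24 with an adjusted p of 0.288 once the length trend was removed. The gap was thus smaller than that of Ocln on the log2 scale, with less spread inside each group. DESeq2 gave an adjusted p of 0.121.

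Markers of some other cell types were higher in the libraries labelled Sox9HKO, and those of others overlapped. Of 10 cholangiocyte markers 8 were tested, and all 8 had a positive fold change. Their summed level was 72.4 to 90.6 CPM in Sox9f/f and 146 to 247 CPM in the libraries labelled Sox9HKO, and none of the 10 was at 0 in every library. That list holds Sox9 itself and also Cldn4 and Cldn7, which stand in a junction list as well. The summed level of 9 stellate cell and fibroblast markers was 528 to 648 CPM against 724 to 958 CPM. Macrophage markers summed to 599 to 680 CPM against 620 to 1335 CPM, which overlapped. So did the sums of arterial, portal and capillary endothelial markers (186.5 to 225.5 against 153 to 229 CPM). Erythroid markers overlapped as well (74.75 to 83.36 against 55.2 to 98.7 CPM). Markers of neutrophils (7.08 to 13.7 against 14.2 to 22.3 CPM), lymphocytes (1.58 to 2.88 against 2.98 to 5.30 CPM) and mesothelium (2.88 to 4.77 against 4.97 to 6.75 CPM) were low and did not overlap. A positive fold change was not particular to cholangiocyte markers. All tested markers of stellate cells and fibroblasts (9), macrophages (8), neutrophils (5) and lymphocytes (5) had one too. So had 4 of 5 mesothelial, 3 of 5 erythroid and 4 of 7 arterial, portal and capillary endothelial markers. Among hepatocyte markers it was 1 of 9, and among the other endothelial markers 4 of 12. The part of these shifts in the Ocln and Tjp1 values was not tested.

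Cldn2 was nearly absent from 1 library and abundant in the other 5. The gene is on the plus strand of chromosome X, from 139800828 to 139811386 (ENSMUSG00000047230). Sox9f/f replicates 5 and 6 held 4244 and 3863 counts, whereas Sox9f/f replicate 8 held 3. The libraries labelled Sox9HKO held 6142, 4520 and 3847. In replicate 8 this was 0.122 CPM, with an exact Poisson 95% interval of 0.0251 to 0.356 CPM, and in the other 5 libraries 140 to 229 CPM. Relative to the mean of Sox9f/f replicates 5 and 6 the ratio was 0.000711 (0.000147 to 0.00208, counting error only). Of 1242 genes with at least 100 CPM in each of the other 5 libraries, Cldn2 alone was at least 8-fold lower in replicate 8 than in all of them. No gene of that abundance was so low in any of the other 5 libraries.

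The genes beside Cldn2 on the X chromosome did not show such a drop in Sox9f/f replicate 8. Morc4, the next gene tested downstream, had 10.7 CPM there and 7.66 to 12.2 CPM elsewhere. Tbc1d8b, upstream, had 25.5 CPM there and 16.3 to 27.7 CPM elsewhere. Ripply1, between Tbc1d8b and Cldn2, was near 1 CPM or lower in every library, at 0.446 CPM in replicate 8 and 0.332 to 1.19 CPM elsewhere. Neither the reads nor the genotype at this locus were analysed here.

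With all 6 libraries the Cldn2 log2 fold change was 0.64 ± 1.39 (SE) with an edgeR adjusted p of 0.823. Without Sox9f/f replicate 8 it was 0.057 with an edgeR adjusted p of 0.929. In the remaining libraries the groups overlapped, since 194 and 149 CPM in Sox9f/f stood beside 229, 167 and 140 CPM. The zoned expression of claudin-2, known from rat liver to be stronger near the central vein, could not be read from whole liver. The 12 pericentral markers summed to 10880 to 15270 CPM in Sox9f/f and 8760 to 15510 CPM in the libraries labelled Sox9HKO, so these groups overlapped as well.

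**Figure D1:**
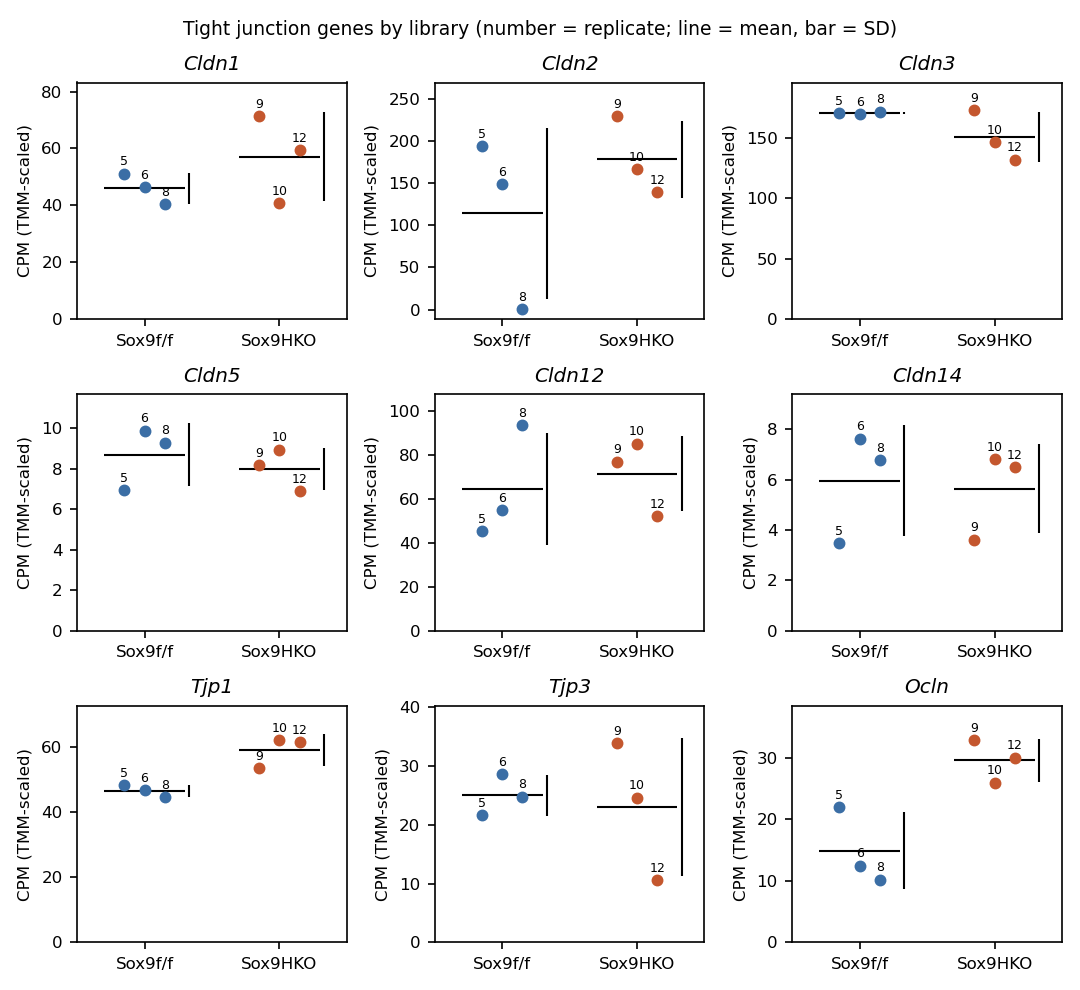
Level of the 9 genes in each library (CPM, linear axes that differ between panels); points are libraries labelled with their replicate number, horizontal lines are group means and vertical bars the SD of 3 libraries. Ocln and Tjp1 are the panels whose groups do not overlap, and Sox9f/f replicate 8 stands at 0.122 CPM in the Cldn2 panel.

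The sequences in front of the Ocln, Tjp1 and Cldn2 starts are shown because these are the members on which the values above turn. They are the 250 bases before the RefSeq start (GRCm38.p6), 5′ to 3′ on the gene's strand. Capitals mark any match to the searched letters. Those were the GC box GGGCGG, the TATA box TATAAA, the E-box CAGGTG bound by the Snail and ZEB repressors of epithelial genes, and the SOX cores ACAATG and ACAAAG, each searched on both strands.
Ocln, chr13:100552719-100552968, minus strand: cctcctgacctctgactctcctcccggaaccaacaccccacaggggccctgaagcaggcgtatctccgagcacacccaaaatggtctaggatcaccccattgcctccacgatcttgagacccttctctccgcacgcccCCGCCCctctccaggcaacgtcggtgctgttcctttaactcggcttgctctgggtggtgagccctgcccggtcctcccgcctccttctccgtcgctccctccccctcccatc
Tjp1, chr7:65371245-65371494, minus strand: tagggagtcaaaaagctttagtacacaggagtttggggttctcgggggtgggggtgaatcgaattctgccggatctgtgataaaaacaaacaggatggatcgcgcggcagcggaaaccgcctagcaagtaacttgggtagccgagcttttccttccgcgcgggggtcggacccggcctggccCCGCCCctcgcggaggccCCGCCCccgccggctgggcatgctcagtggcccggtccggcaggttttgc
Cldn2, chrX:139800558-139800807, plus strand: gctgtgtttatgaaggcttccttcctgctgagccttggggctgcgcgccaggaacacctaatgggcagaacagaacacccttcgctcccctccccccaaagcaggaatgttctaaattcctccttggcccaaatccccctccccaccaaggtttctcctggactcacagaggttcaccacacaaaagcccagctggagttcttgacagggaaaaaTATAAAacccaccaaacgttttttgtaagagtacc

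The Ocln and Tjp1 windows were rich in G and C, with 64.0% and 63.2% and with 14 and 22 CpG pairs. They held 1 and 2 GC boxes and no TATA box. The Cldn2 window had 52.0% G and C and 4 CpG pairs, with a TATA box that begins 35 bases before the start and no GC box. Among 32817 windows of the same length, 32.7% held a GC box and 12.4% a TATA box. None of the 3 windows held the E-box or either SOX core, which stood in 17.2%, 10.7% and 16.5% of all windows. Of the other 6 members, Tjp3 held 1 E-box and Cldn1 and Cldn14 held 1 SOX core each. GC boxes also stood in the windows of Cldn1 (2), Cldn3 (1) and Cldn5 (1). The RefSeq start of Tjp1 lies 156537 bases from the outer end of the gene in the expression table, so this window belongs to an inner start. All 9 members had a window, and a match describes letters only.

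Cldn3 had the highest level of the 9 per gene length. In FPKM, the authors' counts scaled by gene length and library total, it averaged 127 over the 6 libraries, and its range was 107 to 146. Its locus is chromosome 5, plus strand, 134986214 to 134987472 (ENSMUSG00000070473). The Sox9f/f libraries were nearly level, at 171, 170 and 172 CPM. Those labelled Sox9HKO spread more widely, at 173, 147 and 132 CPM for replicates 9, 10 and 12, so that the groups overlapped through replicate 9. Its log2 fold change came to -0.18 ± 0.12 (SE) with an edgeR adjusted p of 0.435.

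Cldn1, without which the skin barrier of mice fails, lies on chromosome 16 from 26356642 to 26371841 on the minus strand (ENSMUSG00000022512). The Sox9f/f libraries stood at 51.1, 46.5 and 40.3 CPM. Replicates 9, 10 and 12 labelled Sox9HKO stood at 71.5, 40.7 and 59.3 CPM, with replicate 10 inside the Sox9f/f range. This gave a log2 fold change of 0.31 ± 0.20 (SE) with an edgeR adjusted p of 0.412, and it was 0.13 without Sox9HKO replicate 9 and 0.51 without Sox9HKO replicate 10.

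By mean FPKM over all libraries the order was Cldn3, Cldn2, Cldn1, Tjp3, Cldn5, Tjp1, Cldn12, Ocln and Cldn14. Cldn3 stood clear of every other member in all 6 libraries. Cldn2 stood above Cldn1 in 5 libraries and below it in Sox9f/f replicate 8. The lower part of the order was not resolved. Tjp3 (3.59 to 11.9 FPKM), Cldn5 (4.71 to 6.66), Tjp1 (4.08 to 5.97) and Cldn12 (2.94 to 6.16) overlapped each other across the libraries. Cldn14 at 0.902 to 1.97 FPKM overlapped with Ocln at 1.32 to 4.63 FPKM, and Ocln with Cldn12.

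The make-up of the claudin pool does not depend on the scaling between libraries. The table lists 33 claudin genes, of which 15 had no count in any library, and the 6 claudins among the members made up 96.8% to 98.8% of the summed claudin FPKM. Cldn3 took 64.5%, 66.8% and 81.6% in Sox9f/f replicates 5, 6 and 8. It took 59.1%, 61.4% and 60.8% in replicates 9, 10 and 12 labelled Sox9HKO, so its share was lower in 3 of 3. The means were 71.0% ± 9.31 and 60.4% ± 1.18 (SD, n = 3 each), with a two-sided exact permutation p of 0.1, the smallest that 3 against 3 allows. Sox9f/f replicate 8, where Cldn3 took most, is the library with 3 counts of Cldn2.

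With Cldn2 left out of the sum in all libraries, an alternative added after the data were seen, Cldn3 took 81.4% to 83.2% in Sox9f/f and 75.8% to 78.1% in the libraries labelled Sox9HKO. The groups again did not overlap, with an exact permutation p of 0.1. Without Sox9f/f replicate 8 the difference in the Cldn3 share (Sox9HKO minus Sox9f/f) was -5.22 percentage points, against -10.55 with it (exact permutation p = 0.2, the smallest for 3 against 2).

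Cldn1 took 7.34% ± 0.22 of the pool in Sox9f/f and 8.89% ± 2.06 in the libraries labelled Sox9HKO (SD, n = 3 each, exact permutation p = 0.4). Cldn2 took 22.5%, 18% and 0.0178% in Sox9f/f and 24.1%, 21.5% and 19.8% in the others. Its mean share differed by 8.28 percentage points (exact permutation p = 0.3) and, without Sox9f/f replicate 8, by 1.53 (exact permutation p = 0.6). Summed claudin FPKM without Cldn2 was 156, 158 and 163 in Sox9f/f and 188, 153 and 142 in replicates 9, 10 and 12 labelled Sox9HKO, and these groups overlapped.

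**Figure D2:**
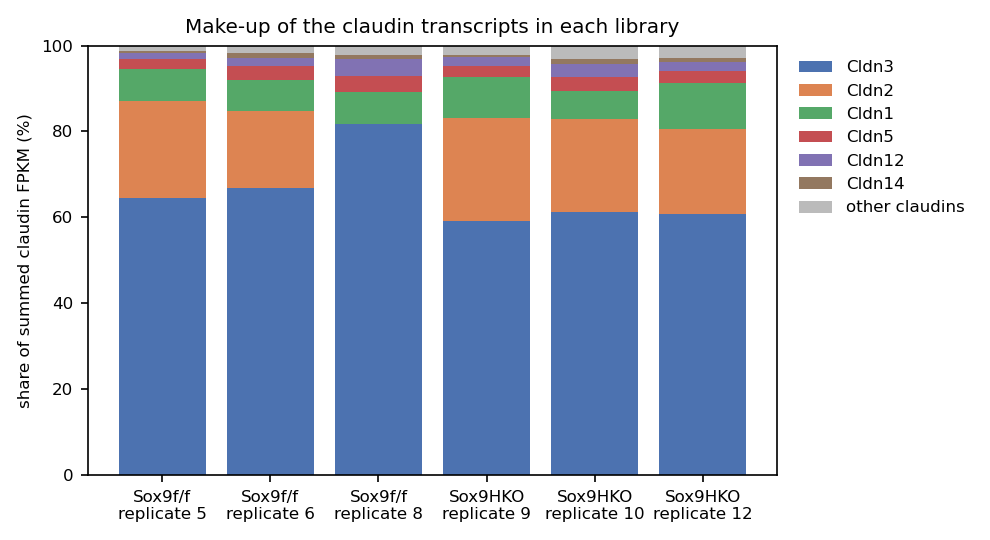
Share of each claudin in the summed claudin FPKM of a library (percent, stacked to 100); each bar is 1 library and grey stands for the claudins outside the 6 members. Cldn3 takes 59.1% to 61.4% in the libraries labelled Sox9HKO and 64.5% or more in Sox9f/f, and the Cldn2 block is missing in Sox9f/f replicate 8.

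Cldn5 is the claudin of endothelial cells and seals the blood-brain barrier. Its locus is chromosome 16, plus strand, 18776847 to 18778260 (ENSMUSG00000041378). Its levels were 6.94, 9.89 and 9.29 CPM in Sox9f/f and 8.17, 8.95 and 6.90 CPM in the libraries labelled Sox9HKO, and the groups overlapped. On the log2 scale the difference was -0.12 ± 0.19 (SE) with an edgeR adjusted p of 0.749. The 12 endothelial markers had a median log2 fold change of -0.11, with 0 at an unadjusted p under 0.05 (all genes 19.8%). Their summed level was 638 to 717 CPM against 523 to 760 CPM. All 12 endothelial markers were tested and none was at 0.

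Cldn12, an atypical claudin that lacks the usual tail for binding ZO scaffolds, lies on chromosome 5 from 5489537 to 5514958 on the minus strand (ENSMUSG00000046798). It varied within both groups, at 45.4, 55.04 and 93.6 CPM in Sox9f/f and at 77.1, 85.2 and 52.3 CPM in the libraries labelled Sox9HKO. The log2 fold change was 0.15 ± 0.29 (SE) with an edgeR adjusted p of 0.803. Its sign turned to -0.049 without Sox9f/f replicate 5 and to -0.014 once the trend on gene length was removed.

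Cldn14, known for its part in hearing and in kidney calcium handling, lies on chromosome 16 from 93919031 to 94008837 on the minus strand (ENSMUSG00000047109). It held 76, 198 and 167 counts in Sox9f/f and 97, 185 and 179 in the libraries labelled Sox9HKO. Each group thus had 1 low library, Sox9f/f replicate 5 and Sox9HKO replicate 9. The log2 fold change was -0.08 ± 0.35 (SE) with an edgeR adjusted p of 0.916. The sign turned without Sox9f/f replicate 6 or 8 or Sox9HKO replicate 9, under library-size scaling and on the FPKM scale.

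Tjp3 encodes ZO-3, a scaffold found in epithelial tight junctions. It lies on chromosome 10 from 81273207 to 81291267 on the minus strand (ENSMUSG00000034917). The Sox9f/f libraries stood at 21.6, 28.6 and 24.8 CPM. Replicates 9, 10 and 12 labelled Sox9HKO stood at 33.9, 24.6 and 10.6 CPM, so replicate 9 was the highest and replicate 12 the lowest of all 6. A log2 fold change of -0.12 ± 0.36 (SE) resulted, with an edgeR adjusted p of 0.874, and without Sox9HKO replicate 12 it was 0.22. Tjp3 overlaps Apba3 on the opposite strand, which held 1576 to 2340 counts. The sources used here do not say whether counting used strand, and if it did not, reads of the 2 genes cannot be told apart where they overlap. Cldn3 overlaps Wbscr25, which had at most 1 count, and Tjp1 overlaps gene models with no count.

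**Figure D3:**
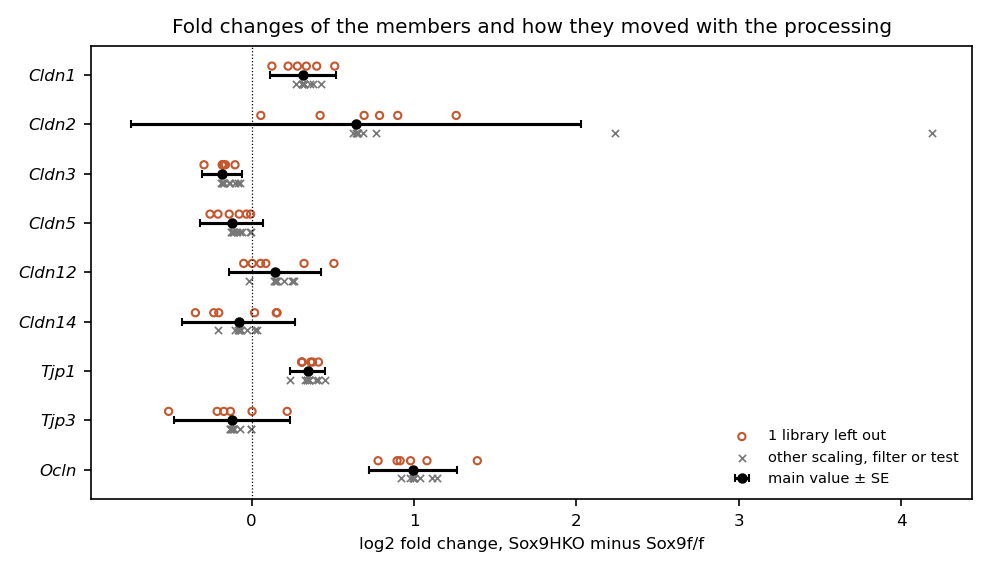
Log2 fold change of each member (Sox9HKO minus Sox9f/f); black points with bars are edgeR values ± SE, open circles leave out 1 library each, and crosses are other scalings, filters or tests. Ocln, Tjp1, Cldn1 and Cldn2 stay above 0 throughout, and Cldn3 and Cldn5 stay below 0. Cldn12, Cldn14 and Tjp3 cross 0, and Cldn2 runs from 0.057 to 4.19.

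Likeness to other genes was described by the root mean square difference of centred log2(CPM + 0.5) over the 6 libraries, among 189 listed genes. Tjp1 lay close to Pkp2, a desmosomal plakophilin (0.0723). For Tjp3 the nearest was Abcb11, the bile salt export pump (0.122), which was likewise lowest in Sox9HKO replicate 12, at 265 CPM against 424 to 640 CPM in the other 5 libraries. Cldn5 was nearest to Tek, an endothelial receptor kinase (0.0934), and Cldn3 to Rhoa, a small GTPase (0.0653). For Cldn2 no gene came closer than 2.63 (Ocln). Its 0.122 CPM in Sox9f/f replicate 8 sets this distance, so the measure cannot describe its likeness over the other 5 libraries. Ocln came no closer than 0.336 to any gene (S100a9), and the nearest gene to Cldn1 was Cd3g (0.0693), which had under 2 CPM in every library.

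The rest of the junction was examined in 6 lists of 113 symbols, of which 103 were in the table and 87 were tested. In edgeR 0 of the 87 passed the adjusted threshold. Before adjustment 17 (19.5%) had a p under 0.05 and a positive change and 4 (4.60%) a negative one, where all genes tested gave 9.74% and 10.1%. With the trend on gene length removed 8 of 87 (9.20%) were positive at that level, where all genes tested gave 7.29%. Without Sox9HKO replicate 10 there were 10 (11.5%, all genes 6.68%). Under library-size scaling there were 33 (37.9%, all genes 15.7%), and on the FPKM scale also 33 (37.9%, all genes 14.9%). The median log2 fold change of the 87 was 0.16, and that of all genes tested 0.0044.

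Among other claudins 7 of 23 symbols were tested, 5 of them with a positive change. Cldn4 and Cldn7, which bile duct cells carry, had log2 fold changes of 0.72 ± 0.34 and 0.69 ± 0.34 (SE). Cldn4 stood at 1.69, 2.50 and 4.26 CPM in Sox9f/f and at 4.85, 5.42 and 3.74 CPM in the libraries labelled Sox9HKO, so the groups overlapped. Claudin domain gene Cldnd1 stood at -0.39 ± 0.19. The list had 1 gene higher (14.3%, all genes 9.74%) and 1 lower (all genes 10.1%) at an unadjusted p under 0.05. These were Cldn8 and Cldn15, both under 2 CPM and named after their values were seen.

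Of 12 other membrane proteins of the tight junction 1 was higher (8.33%, all genes 9.74%) and 1 lower (all genes 10.1%) at that level. Their median was 0.11. Lsr, one of 3 angulins that recruit tricellulin to the corners between cells and also a lipoprotein receptor, stood at 278, 295 and 260 CPM in Sox9f/f. It stood at 253, 177 and 149 CPM in the libraries labelled Sox9HKO, all below Sox9f/f. The log2 fold change was -0.52 ± 0.19 (SE) with an edgeR adjusted p of 0.201. The other angulins, named after their values were seen, were positive, with Ildr1 (under 2 CPM) at 1.03 ± 0.37 and Ildr2 at 0.15 ± 0.30. Marveld2, which encodes tricellulin, stood at 0.28 ± 0.14, with groups that did not overlap (12.2 to 13.7 CPM against 13.9 to 17.1 CPM) and an edgeR adjusted p of 0.309. The junctional adhesion molecules F11r and Jam3 stood at 0.15 ± 0.11 and 0.51 ± 0.24, Jam2 (likewise named later) at -0.18 ± 0.16, and the endothelial adhesion molecule Esam at -0.19 ± 0.14.

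Of 31 symbols for plaque and polarity proteins 28 were tested, with a median of 0.11. At an unadjusted p under 0.05, 5 were higher (17.9%, all genes 9.74%) and 1 lower (all genes 10.1%). This became 2 higher (7.14%, all genes 7.29%) and 2 lower with the length trend removed. Without Sox9HKO replicate 10 it was 2 higher (7.14%, all genes 6.68%) and 1 lower. Cingulin, a plaque protein that binds ZO-1 and is encoded by Cgn, stood at 0.34 ± 0.18.

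Pard6a, an adaptor of the apical polarity complex, was lower in 3 of 3 libraries labelled Sox9HKO. It stood at 5.30, 5.77 and 5.89 CPM in Sox9f/f and at 3.14, 3.28 and 3.05 CPM in the others, a log2 fold change of -0.84 ± 0.18 (SE). The edgeR adjusted p was 0.139 and the DESeq2 adjusted p 0.0130. Rock1, a kinase that drives contraction of the actomyosin belt, stood at 10.8 to 14.5 CPM against 18.1 to 20.0 CPM (0.56 ± 0.15, edgeR adjusted p = 0.151, DESeq2 adjusted p = 0.0406). Amot, a scaffold that binds YAP, stood at 0.46 ± 0.14 and Tjap1 at -0.30 ± 0.17.

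The belts beside the tight junction held more genes with separated groups. Of 20 symbols for adherens junctions, desmosomes and gap junctions 16 were tested. The groups did not overlap upwards for 10 of the 16, where 12.2% of all genes tested did so. Downwards this held for 1, where 14.3% of all genes tested did so. The median log2 fold change was 0.30. Without adjustment 7 (43.8%, all genes 9.74%) had a p under 0.05 with a positive change. With a negative change there was 1, where all genes gave 10.1%. With the trend on gene length removed these counts became 2 higher (12.5%, all genes 7.29%) and 0 lower. The median was then 0.20, and that of all genes -0.04.

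Dsc2, a desmosomal cadherin, stood at 30.7, 25.7 and 30.0 CPM in Sox9f/f and at 41.1, 40.0 and 45.8 CPM in the libraries labelled Sox9HKO. Its log2 fold change was 0.56 ± 0.12 (SE) with an edgeR adjusted p of 0.139 and a DESeq2 adjusted p of 0.0132. Dsp, which anchors desmosomes to keratin, stood at 0.44 ± 0.14, and Cdh1, the E-cadherin of the adherens belt, at 0.44 ± 0.17. Cdh1 in Sox9f/f replicate 5, at 55.02 CPM, lay below the 80.9 and 84.4 CPM of replicates 6 and 8, and all lay below the 95.8 to 102 CPM of the other group. Of the 3 gap junction connexins in the list, Gjb2 stood at -0.28 ± 0.12, Gjb1 at -0.22 ± 0.13 and Gja1, named after its value was seen, at 0.37 ± 0.18. Gjb1, the main connexin of hepatocytes, stood at 482 to 601 CPM against 446 to 517 CPM.

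Of 15 symbols for the bile canaliculus, the space that the tight junction closes, 14 were tested. The list had 2 genes higher (14.3%, all genes 9.74%) and 0 lower (all genes 10.1%) at an unadjusted p under 0.05. Its median was 0.05. Ezr, which links membrane to actin, stood at 14.5, 12.5 and 10.9 CPM in Sox9f/f and at 20.8, 20.7 and 15.7 CPM in the libraries labelled Sox9HKO (0.59 ± 0.17, edgeR adjusted p = 0.156). Whole liver does not show in which cells Ezr was higher. The motor Myo5b stood at 0.26 ± 0.11, Slc9a3r1 at -0.20 ± 0.12 and Rab11a at -0.10 ± 0.10.

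Of 12 transcription factors tied to junction genes 10 were tested, with 1 higher at an unadjusted p under 0.05 and a median of 0.09. Zeb2, which represses Cdh1 and is also used by stellate cells and macrophages, stood at 9.27, 8.35 and 10.3 CPM against 23.4, 25.02 and 19.5 CPM. Its log2 fold change of 1.28 ± 0.15 (SE) had an edgeR adjusted p of 0.0993 and a DESeq2 adjusted p of 1.01e-08. For both Cdh1 and Zeb2 every library labelled Sox9HKO lay above every Sox9f/f library, and whole liver does not show in which cells. Klf6 stood at 0.32 ± 0.21 and Cebpa, a factor of hepatocyte identity, at -0.21 ± 0.14.

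**Figure D4:**
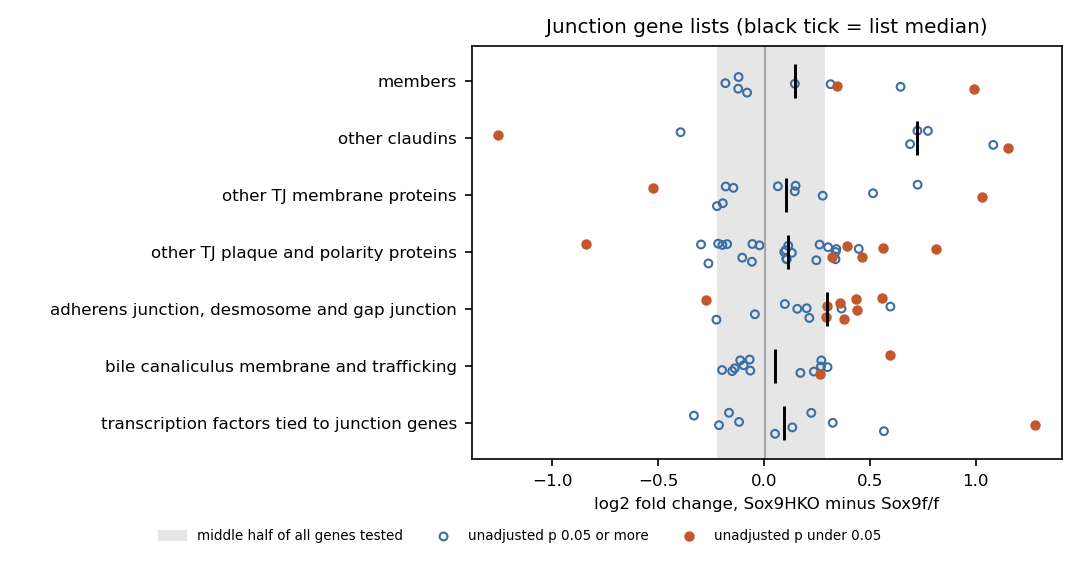
Log2 fold change (Sox9HKO minus Sox9f/f) of each tested gene in the members and the 6 junction lists; filled points have an unadjusted edgeR p under 0.05, ticks are list medians and the grey band spans the quartiles of all genes tested. The median is 0.30 for the adherens, desmosome and gap junction list and 0.05 for the bile canaliculus list.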

How the data were processed

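The deposited table gives whole-number gene counts and FPKM values per the file headers, 1 column of each per liver sample. The submitters' processing notes list HISAT2 2.0.4 and StringTie 1.3.0, and as builds GRCm38.p4 and mm10, with no role for any of them. Which tool counted, whether by strand and on which annotation remains not stated in those notes or the labels. FPKM equalled count over a fixed length and the library total to within 0.0109% over 13046 genes.

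The main test was the quasi-likelihood test of edgeR 4.0.16 under R 4.3.3 (filterByExpr, TMM, robust fit, no covariates), with p-values adjusted over all 14137 genes tested. Each SE is the log2 fold change divided by the root of its F statistic. Shares of FPKM were tested by exact permutation (SciPy 1.17.1). No 2 libraries agreed within sampling noise (chi-square per degree of freedom 29.7 or more). Alternatives used DESeq2 1.42.0, limma 3.58.1, other scalings and filters, log2(FPKM + 0.5), removal of a length trend (spline, 4 degrees of freedom) and omission of each library. The scripts were checked on simulated counts.

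The members and lists were chosen with earlier results of these data known. Beyond the members, named genes were the 2 of smallest p per direction in each list with a mean of at least 1 CPM, plus Cgn, F11r, Marveld2, Cdh1 and Gjb1. Some genes that this rule names are not reported here. Promoters came from RefSeq (GRCm38.p6). Coordinates are those of the table, 7 of the 9 identical in GENCODE M21.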

Additional observations from a re-analysis of the deposited data

How the results depend on the processing

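No paired analysis was possible because the groups share no replicate numbers. Of 144 alternatives over the 9 members, 134 kept direction and side of the threshold, 9 turned the sign of Cldn12, Cldn14 or Tjp3, and DESeq2 called Ocln (log2 fold change 1.0). Removal of the length trend gave Cldn12 -0.0143, while library-size scaling gave Cldn14 0.0235 and FPKM values gave it 0.0349. With 1 library left out, Cldn12 ranged from -0.0486 to 0.51, Cldn14 from -0.35 to 0.16 and Tjp3 from -0.51 to 0.22, where the sign of Tjp3 turned without Sox9f/f replicate 6 or Sox9HKO replicate 12. Over all genes edgeR called 0, with 2800 at an unadjusted p under 0.05. DESeq2 called 605 genes (4.46% of all genes), 1 of the 9 members and 4 of the 87 junction genes. No filter gave 10 genes and 1 junction gene, and a threshold of 0.1 gave 5 genes. Leaving out a library gave 0 to 3 (3 without Sox9f/f replicate 5, 2 without Sox9HKO replicate 12). Cldn2 moved to 2.24 on the FPKM scale and 4.19 in limma voom with sample weights. Of 400 alternatives over 25 other named genes, 393 kept direction and side, and 2 reversed. Both were of Rab11a, at 0.0131 under library-size scaling and 0.0128 on the FPKM scale. The other 5 were DESeq2 calls of Rock1, Pard6a, Dsc2 and Zeb2, and Zeb2 without a filter. Library-size scaling moved the median of all genes to 0.11. The cause of these shifts was not tested. With 3 libraries a group, no exact permutation p can fall below 0.1.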

Other observations

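Single genes that were at least 8-fold below all other libraries occurred in small numbers throughout. Among genes with at least 1 CPM in the other 5 libraries there were 0, 2 and 3 in Sox9f/f replicates 5, 6 and 8, and 3, 2 and 5 in replicates 9, 10 and 12 labelled Sox9HKO. Cldn2 in Sox9f/f replicate 8 was the only one of these whose other libraries all reached 100 CPM. Whether the 3 counts reflect the animal, the library or the counting was not tested.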
